A study of Homo sapiens with 6 samples.

Results

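Ion channel genes outside the calcium channel family were taken from the 2 lists of intronic clusters by gene name. A cluster is a place in an intron of a protein-coding gene that was covered by sequenced RNA, given on hg38. The names kept began with KCN (potassium channels), SCN and a digit (sodium channels), TRPC, TRPM or TRPV and a digit (TRP cation channels), CLCN (chloride channels and exchangers), GRIA, GRID, GRIK or GRIN and a digit (ionotropic glutamate receptors) or GABR (GABA-A receptors), for rows that name 1 gene, and GRIK3 was left out by the rule. This gave 93 genes of the 11805 named alone in either list, with 986 of the 188027 F125A clusters and 2091 of the 366429 WT clusters. The name rule also takes in accessory subunits (KCNIP, KCNAB, KCNE, KCNMB, SCN3B) and 2 genes that are not channels, TRPC4AP and GRID2IP, whose products were named as partners of a channel or receptor.

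The libraries held nuclease-protected RNA that copurified with FLAG-tagged Rbfox1 and LASR, a large assembly of RNA-binding splicing proteins. All groups share 1 Rbfox2 knockout line, which the labels call KO#7, made in HEK293 Flp-In cells (human embryonic kidney). The groups were FLAG-Rbfox1(F125A) with 2 libraries, in which a phenylalanine of the RNA recognition motif is replaced, FLAG-Rbfox1(WT) with 3 libraries, and the same line without a transgene with 1 library, which was not analysed here. Each Rbfox1 group has 1 list for all its libraries, so no value below has a replicate error, no test of the groups was possible, and intervals are exact (Clopper-Pearson) 95% intervals that cover counting error only. The lists give places and no read counts, so depth is unknown, and the list totals differ by 1.95 WT clusters per F125A cluster.

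Ion channels are pores that let ions cross a membrane along their gradient. Voltage-gated potassium and sodium channels shape the action potential, TRP channels pass cations in response to chemical or physical stimuli, CLCN proteins move chloride across the plasma membrane or acidic vesicles, and glutamate and GABA-A receptors open on binding a transmitter. Rbfox proteins bind GCAUG in introns and regulate neighbouring exons, among them, in mouse brain, exons of the channel genes SCN8A and GRIN1. Many channel genes are very long and carry long introns, and some host microRNAs, which are cut from hairpins in the primary transcript.

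Some clusters lay over those microRNA hairpins. RefSeq (GRCh38.p14) places 15 hairpins on the transcribed strand of 7 of the 93 genes, and 6 of them, 5 in CLCN5 and 1 in TRPM3, were overlapped by F125A clusters, against 3 by WT clusters, all among the same 6. Over all genes with clusters, F125A clusters overlapped 79 of 700 such hairpins (11.3%) and WT clusters 72 (10.3%). CLCN5, which encodes a chloride-proton exchanger of endosomes, lies at chrX:49922596-50099230 on the plus strand and held 10 F125A and 20 WT clusters. TRPM3, a cation channel gated by heat and steroids, lies at chr9:70529060-71446971 on the minus strand and held only 3 F125A and 5 WT clusters in 918 kb, of which 2 in each list lay over MIR204. The hairpins are printed 5′ to 3′ from RefSeq to show how far a cluster reached, with the covered bases in capitals and, where the lists differ, 1 line per list. They lie at chrX:50003148-50003238 (MIR532), chrX:50003503-50003588 (MIR188), chrX:50008431-50008514 (MIR500A), chrX:50008964-50009028 (MIR362) and chrX:50013241-50013337 (MIR660), all on the plus strand, and at chr9:70809975-70810084 on the minus strand (MIR204).
MIR532, F125A and WT lists: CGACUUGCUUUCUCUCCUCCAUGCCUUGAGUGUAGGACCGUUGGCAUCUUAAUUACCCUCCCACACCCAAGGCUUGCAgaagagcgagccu
MIR188, F125A list: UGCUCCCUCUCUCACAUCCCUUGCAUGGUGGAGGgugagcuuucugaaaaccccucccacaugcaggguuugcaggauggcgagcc
MIR500A, F125A and WT lists: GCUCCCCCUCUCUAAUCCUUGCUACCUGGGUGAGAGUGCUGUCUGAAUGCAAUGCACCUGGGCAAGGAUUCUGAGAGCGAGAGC
MIR362, F125A list: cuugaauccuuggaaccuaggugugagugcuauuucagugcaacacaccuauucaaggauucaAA
MIR660, F125A list: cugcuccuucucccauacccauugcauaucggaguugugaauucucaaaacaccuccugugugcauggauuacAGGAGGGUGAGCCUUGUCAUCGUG
MIR204, F125A list: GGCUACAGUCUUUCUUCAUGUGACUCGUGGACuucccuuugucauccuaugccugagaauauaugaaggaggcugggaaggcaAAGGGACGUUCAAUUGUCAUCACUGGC
MIR204, WT list: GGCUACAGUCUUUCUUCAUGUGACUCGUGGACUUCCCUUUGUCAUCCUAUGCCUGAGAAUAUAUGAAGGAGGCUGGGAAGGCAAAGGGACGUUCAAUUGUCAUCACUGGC

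Some cluster ends fell at the ends of the mature microRNAs. Of the 11 clusters over these hairpins, 5 of 7 F125A clusters and 3 of 4 WT clusters had an end within 1 nt of an end of a mature microRNA, beside 28 of 112 F125A and 30 of 105 WT clusters (28.6%) over hairpins in all genes. These clusters are few and not separate events, since the MIR532 end is counted in both lists and the WT clusters at MIR204 meet at 1 boundary. Both the 89-nt F125A cluster and the 84-nt WT cluster over MIR532 ended at the last base of miR-532-3p. At MIR188 the F125A cluster stopped 1 nt short of the 3′ end of miR-188-5p, and no WT cluster overlapped that hairpin. At MIR362 and MIR660 the F125A clusters began downstream of the 3p arm, directly after the last base of miR-362-3p and 1 nt further on for miR-660-3p, and covered only 2 and 24 nt of the hairpins. At MIR204 the lists divided the hairpin differently. A 36-nt F125A cluster ended directly before miR-204-5p, so that none of the 22 nt of that arm was covered, whereas a 96-nt WT cluster took in both arms and ended at the last base of miR-204-3p, where the next WT cluster began. The clusters over MIR500A, 127 nt in the F125A list and 116 nt in the WT list, ran past the whole hairpin and kept 25 nt from the nearest mature end. Whether these clusters hold uncut or cut RNA cannot be read from lists without reads.

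The mature sequences, with the seed (bases 2 to 8) in capitals, show which arms were covered. No seed was shared among the 11 mature sequences used here for the 6 hairpins, which include only the 3p arm of MIR660. Those named in the comparison above are printed.
miR-532-5p: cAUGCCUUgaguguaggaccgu
miR-532-3p: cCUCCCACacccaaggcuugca
miR-188-5p: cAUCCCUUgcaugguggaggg
miR-500a-5p: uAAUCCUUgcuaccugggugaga
miR-500a-3p: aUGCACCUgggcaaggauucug
miR-362-3p: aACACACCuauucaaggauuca
miR-660-3p: aCCUCCUGugugcauggauua
miR-204-5p: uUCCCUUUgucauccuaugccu
miR-204-3p: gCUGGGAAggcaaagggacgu
Clusters of both lists covered both arms of miR-532 and of miR-500a whole. F125A clusters also covered 20 of the 21 nt of miR-188-5p and 9 of the 21 nt of miR-204-3p, and WT clusters all 22 and 21 nt of miR-204-5p and miR-204-3p. Among the 6 covered hairpins the letters GCAUG, searched on the printed strand, stand in the MIR188 hairpin at bases 23 to 27, inside the F125A cluster, and in MIR660 at bases 63 to 67, outside it. Of all 1562 hairpins in the RefSeq table, 7.23% hold GCAUG and 7.30% its reverse complement CAUGC. Of the 700 hairpins in genes with clusters, 9.14% hold GCAUG. The uncovered hairpins in these 7 genes were MIR500B and MIR502 in CLCN5, MIR105-1, MIR105-2 and MIR767 in GABRA3, MIR346 in GRID1, MIR7978 in KCNIP4, MIR4427 in KCNK1 and MIR211 in TRPM1. Of these uncovered hairpins, MIR105-1, MIR105-2, MIR767 and MIR346 hold GCAUG as well, so the letters were not particular to covered hairpins.

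**Figure D1:**
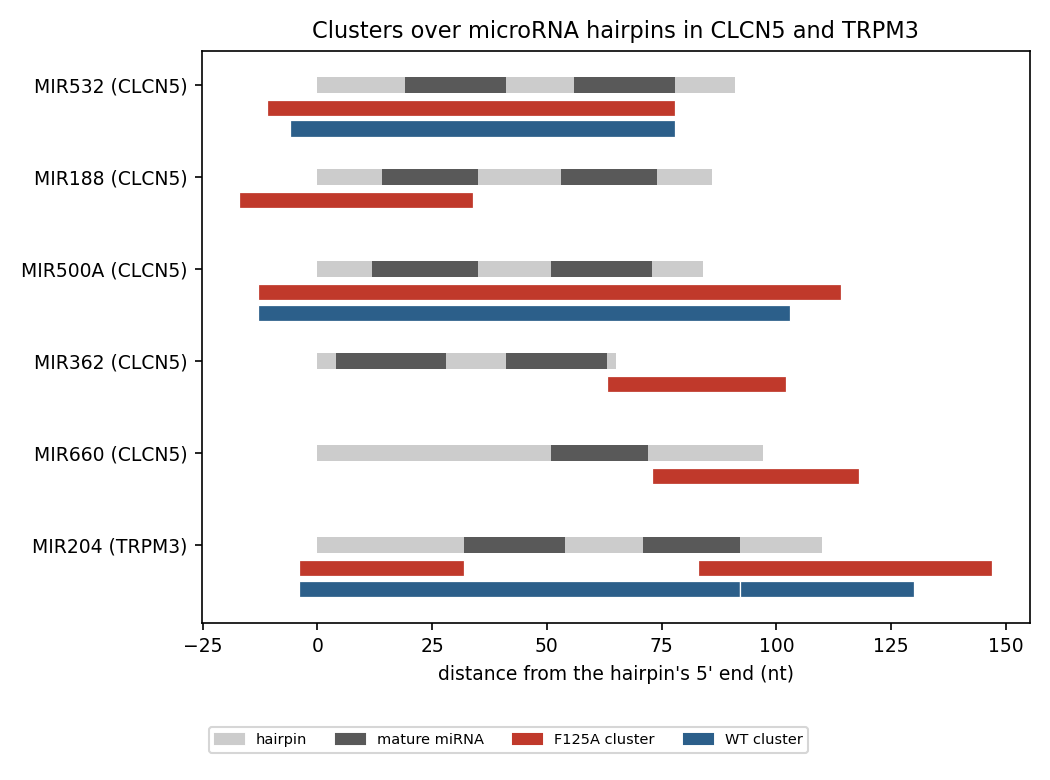
Position of F125A (red) and WT (blue) clusters over 6 microRNA hairpins (light grey, mature microRNAs dark grey, for MIR660 the 3p arm only), in nt from the 5′ end of each hairpin. The MIR188, MIR362 and MIR660 hairpins met F125A clusters only, and the MIR204 hairpin was covered over 59 nt by F125A clusters and over 110 nt by WT clusters.

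Across the 93 genes, recovery was concentrated in a few. KCNQ5 and GRID1 together held 483 of the 986 F125A clusters (49.0%) and 877 of the 2091 WT clusters (41.9%), whereas the median gene had 1 F125A and 4 WT clusters. Clusters in both lists were found in 64 genes (68.8%), in the F125A list only in 5 genes (5.38%) and in the WT list only in 24 (25.8%), against 88.1%, 2.15% and 9.7% of all 11805 genes. The 5 genes in the F125A list only, KCNH5, KCNK10, TRPM1, TRPM2 and TRPM8, had 1 cluster each. In the WT list only, SCN11A had 6 clusters and KCNAB1 and KCNS3 5 each, and no other such gene had more than 4. Another 85 protein-coding genes of RefSeq fit the name rule and had no cluster in either list in a row naming that gene alone. Rows that name several genes were not searched for them. The longest of them, named after their values were seen, were GRIK2 (676 kb), KCNH7 (467 kb) and KCNN2 (441 kb).

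The channel genes took 0.524% of the F125A list (interval 0.492 to 0.558%) and 0.571% of the WT list (0.547 to 0.596%). For 26 genes the lists together held 20 or more clusters, and a log2 ratio of F125A to WT clusters was formed with 1 added to each count and the list totals divided out, so that a positive value means relatively more F125A clusters. Their median was 0.02 (quartiles -0.73 and 0.14), beside 0.04 (-0.26 and 0.36) for all 5626 such genes, and 14 lay above 0 and 12 below (53.5% and 46.5% of all genes). One channel gene lay 2-fold or more toward F125A (1.99% of all genes), and 3, SCN9A, KCNMA1 and TRPC4, lay 2-fold or more toward WT (2.51%). Each of these has 20 to 60 clusters, a range with 17 channel genes in which 3.11% of all genes lay 2-fold or more toward F125A and 3.56% toward WT. The counting interval lay wholly below 0 in 5 of the 26 channel genes (5.85% of all genes) and wholly above 0 in 0 (4.37%).

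**Figure D2:**
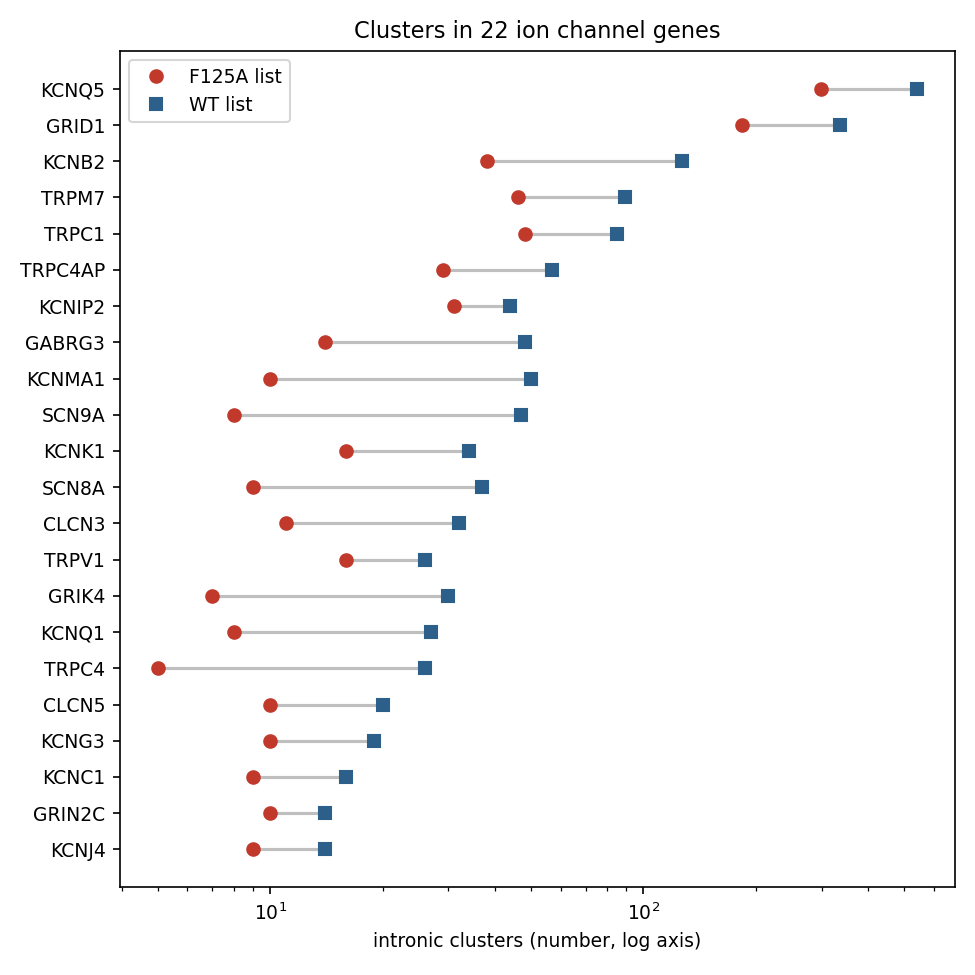
Number of intronic clusters (log axis) in the F125A list (red circles) and the WT list (blue squares) for 22 of the genes in which the lists together held 20 or more. KCNQ5 leads with 299 and 540, and each gene drawn has fewer F125A than WT clusters.

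**Figure D3:**
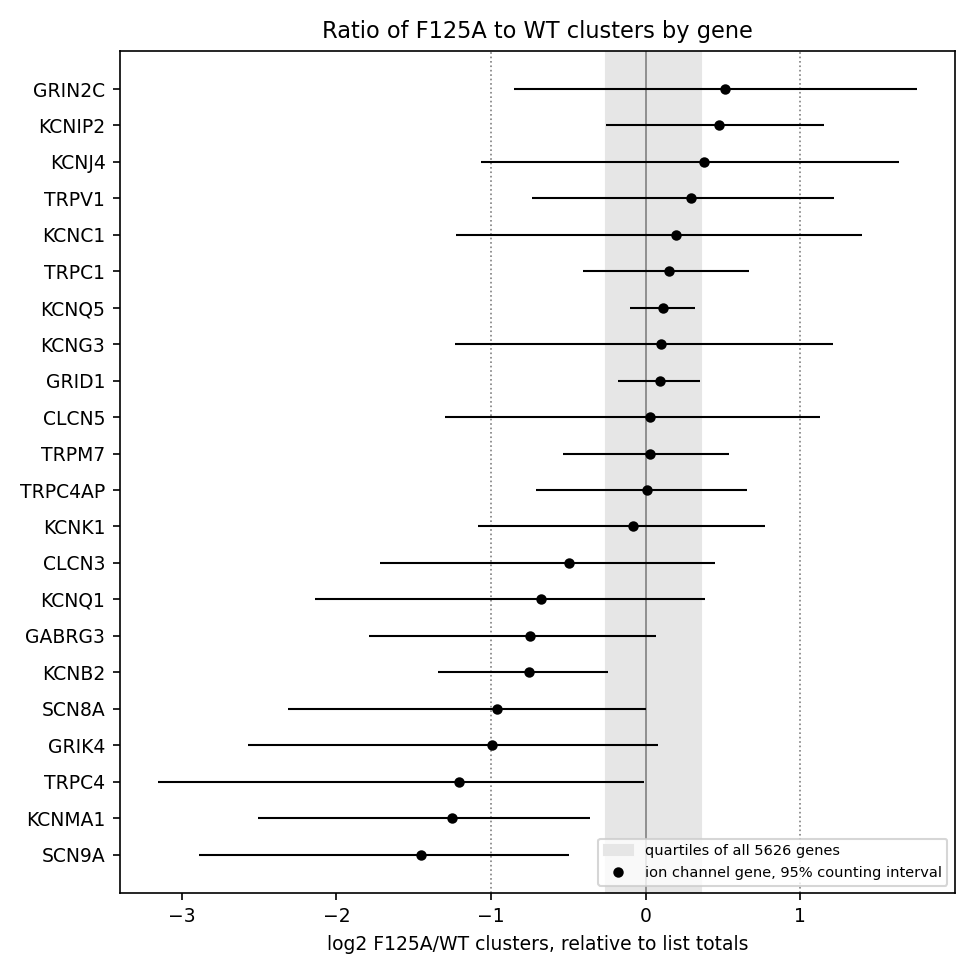
log2 ratio of F125A to WT clusters relative to the list totals, with its exact 95% counting interval, for the same 22 genes, and the quartiles of all 5626 genes in grey. The intervals of SCN9A, KCNMA1, TRPC4 and KCNB2 lie wholly below 0.

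Among potassium channels, 35 of the 79 genes in RefSeq had a cluster, 452 F125A and 934 WT clusters in all. The KCNQ genes, which encode the Kv7 subunits of slow voltage-gated potassium currents differed widely. KCNQ5 on chr6:72622064-73198853 had 299 F125A and 540 WT clusters (log2 ratio 0.11, interval -0.10 to 0.32), or 51.8 and 93.6 clusters per 100 kb of gene. Of 263 genes of like length (within 1.5 times) with at least 20 clusters, 97.0% had a lower F125A density and 95.8% a lower WT density. KCNQ1, the Kv7.1 subunit of heart and epithelia, had 8 and 27 (-0.67, -2.14 to 0.39), and KCNQ3 had 2 and 2. KCNQ5 stood far above KCNQ1 per length, KCNQ1 having 1.98 F125A and 6.68 WT clusters per 100 kb.

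KCNMA1, the pore of the calcium-activated BK channel, had 10 F125A and 50 WT clusters in 768 kb (-1.25, upper bound of the interval -0.36, and -0.996 with clusters closer than 50 nt merged). All 10 F125A clusters overlapped a WT cluster, and 11 of the 50 WT clusters an F125A cluster, beside 85.3% and 44.7% over all genes. The small number of F125A clusters by itself limits the WT share. KCNB2, the delayed rectifier Kv2.2, had 38 and 127 (-0.75, -1.34 to -0.25). Further potassium channels lay within 2-fold. KCNK1, a 2-pore leak channel, had 16 and 34 (-0.08), KCNG3, a silent subunit that modifies Kv2 channels, 10 and 19 (0.10), KCNC1, the fast Kv3.1 channel, 9 and 16 (0.20) and KCNJ4, an inward rectifier, 9 and 14 (0.38). Below 20 clusters, KCNH2, the heart channel hERG, had 6 and 8, and KCNC4 and KCNG1 had 4 and 6 each.

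Of the accessory subunits of potassium channels, 9 of 17 genes had a cluster and KCNIP2 alone reached 20. KCNIP2 encodes a calcium-binding subunit of Kv4 channels and is only 17.8 kb long (chr10:101825974-101843800), yet it had 31 F125A and 44 WT clusters (0.47, interval -0.25 to 1.15, and -0.01 relative to genes of similar length). This was 174 and 247 clusters per 100 kb, above those of 96.4% and 98.3% of 659 genes of like length. All 31 F125A clusters overlapped a WT cluster, beside 85.3% of F125A clusters over all genes. The densest 10-kb window of any of the 93 genes was in KCNIP2 (chr10:101828981-101838980), with 25 F125A and 35 WT clusters. KCNIP1 had 3 and 4, KCNMB4 3 and 3, KCNAB3 2 and 4, and KCNIP4, at 1220 kb, 1 and 4.

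Of the 10 pore-forming sodium channel genes in RefSeq, 8 had a cluster, 20 F125A and 102 WT clusters in all, most of them in SCN9A and SCN8A. SCN9A, the Nav1.7 channel of pain-sensing neurons, had 8 F125A and 47 WT clusters (-1.45, -2.89 to -0.50). Of its 47 WT clusters, 7 overlapped an F125A cluster (44.7% over all genes), a share that the 8 F125A clusters limit. SCN8A, the Nav1.6 channel, had 9 and 37 (-0.96, -2.31 to 0.00). SCN9A shares chromosome 2 with SCN1A, SCN2A and SCN3A, which had 0 and 1, 1 and 3, and 1 and 1 clusters. The density per 100 kb was 4.42 F125A and 26.0 WT clusters in SCN9A, against 0.654 and 1.96 in SCN2A. Both SCN9A densities lay below the medians of 1157 genes of like length with at least 20 clusters, 17.1 and 40.2. Of those genes, 7.69% had a lower F125A density and 29.4% a lower WT density. SCN11A had 0 and 6 and SCN10A 0 and 1. The accessory subunit gene SCN3B had 0 and 2.

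In the TRP family, 12 of 20 genes had a cluster, 132 F125A and 253 WT clusters in all. TRPC1, a subunit of receptor-operated cation channels, had 48 and 85 (0.15, interval -0.40 to 0.67) on chr3:142724034-142807888, and TRPM7, a magnesium-permeable channel fused to a kinase, 46 and 89 (0.03, -0.54 to 0.54). Both had densities above those of most genes of like length, TRPC1 above 86.1% (F125A) and 86.4% (WT), TRPM7 above 74.4% and 72.8%. In TRPM7, 15 F125A and 30 WT clusters also lay within LOC128092252, a protein-coding gene annotated on the same strand, and cannot be assigned to 1 of the 2. TRPC4 contrasted with its paralog TRPC1: it had 5 and 26 clusters (-1.21, -3.15 to -0.01), or 2.10 and 10.9 per 100 kb. All 5 F125A clusters of TRPC4 overlapped a WT cluster, beside 85.3% of F125A clusters over all genes. TRPV1, the receptor for capsaicin and heat, had 16 and 26 (0.30, -0.73 to 1.22). TRPM4 had 6 and 7 and TRPV4 1 and 4. TRPC4AP, which matches by name only, had 29 and 57 (0.01, -0.71 to 0.66), and GRID2IP had 2 and 3.

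Of the 9 chloride channel genes, 6 had clusters, 35 in the F125A and 77 in the WT list. CLCN3, an exchanger of endosomes, had 11 and 32 (-0.50, interval -1.71 to 0.45). CLCN5 had 10 and 20 (0.03, -1.30 to 1.13), and 5 of its 10 F125A clusters were those over microRNA hairpins, against 2 of its 20 WT clusters. CLCN7, the lysosomal exchanger, had 6 and 8, of which 6 and 6 lay within the pseudogene LOC647211, whose strand the tables do not give. CLCN6 had 4 and 8 and CLCN2 3 and 8.

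Glutamate receptor genes were led by GRID1. Of 17 genes in RefSeq, 11 had a cluster, 213 F125A and 406 WT in all. GRID1, a delta receptor that organises synapses rather than carrying fast current, lies at chr10:85599552-86366795 on the minus strand and had 184 and 337 clusters (0.09, interval -0.18 to 0.35), or 24.0 and 43.9 per 100 kb. GRIK4, a kainate receptor subunit, had 7 and 30 (-0.99, -2.57 to 0.08), and GRIN2C, an NMDA receptor subunit, 10 and 14 in 19.5 kb (0.52, -0.85 to 1.75). The AMPA receptor genes were nearly empty, with 1 and 2 clusters in GRIA3 and 1 and 1 in GRIA1 and in GRIA4. GRIN2B had 2 and 1 and GRIK5 0 and 4.

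Of 19 GABA-A receptor genes in RefSeq, 8 had a cluster. GABRG3, the gamma3 subunit, had 14 and 48 (-0.75, -1.79 to 0.07), or 2.45 and 8.41 per 100 kb. Of these, 6 F125A and 9 WT clusters lay within LOC107984766, a 13.6-kb noncoding gene whose strand is not given. The neighbour of GABRG3, GABRA5, had 0 and 1, and GABRA3 and GABRP had 1 and 1 each.

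The ratio was also set against the median ratio in 1 of 20 bins of gene length. KCNQ5 and GRID1, at 577 and 767 kb, then lay at 0.53 and 0.52, above the counting intervals of their ratios to the list totals. GRID1 lay at 0.09 against the list totals and at -0.03 once clusters closer than 50 nt were merged. On the length scale 1 of the 26 genes lay 2-fold or more toward F125A (0.462% of all genes), and 2, SCN9A (-1.26) and TRPC4 (-1, at the cutoff itself), toward WT (2.1%). KCNMA1 lay at -0.83, SCN8A at -0.76 and KCNB2 at -0.44, and the short genes KCNIP2 and GRIN2C at -0.01 and 0.04. The median of the 26 was 0.01, with 13 above and 13 below 0 (49.4% and 49.7% of all genes).

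**Figure D4:**
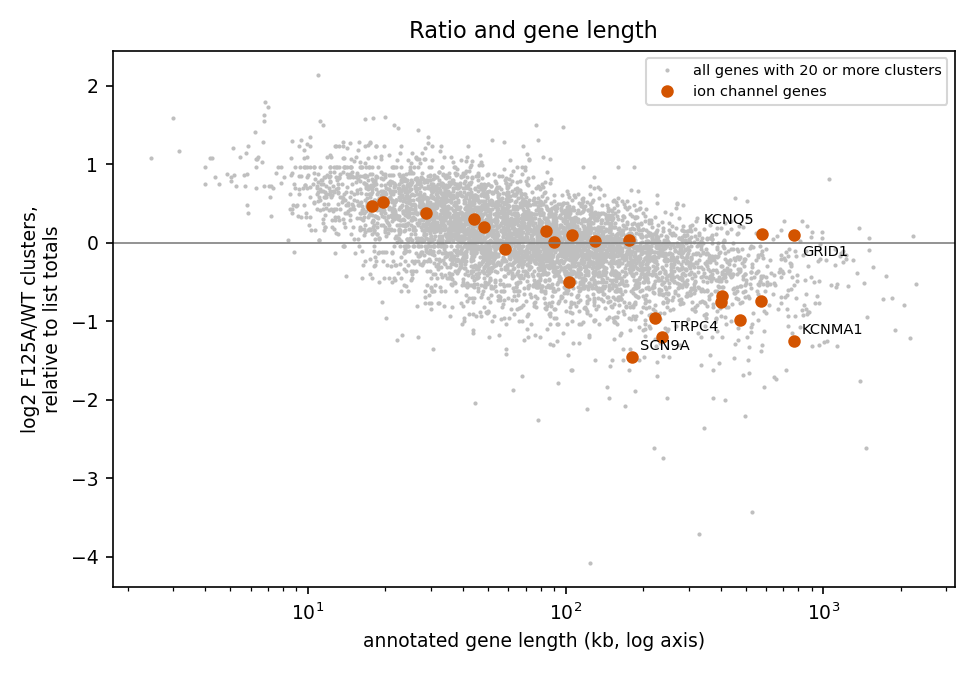
log2 ratio of F125A to WT clusters relative to the list totals against annotated gene length (log axis), for all 5626 genes with at least 20 clusters (grey) and 22 ion channel genes (orange). KCNQ5 (0.11) and GRID1 (0.09, or -0.03 with near clusters merged) lie close to 0 at the long end, and SCN9A (-1.45), KCNMA1 (-1.25) and TRPC4 (-1.21) lie 2-fold or more from 0.

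Most F125A places in channel genes were also WT places. Of the F125A clusters, 842 of 986 (85.4%, interval 83.0 to 87.5%) shared 1 nt or more with a same-strand WT cluster, beside 85.3% over all genes. Of the WT clusters, 873 of 2091 (41.8%, 39.6 to 43.9%) overlapped an F125A cluster, beside 44.7% over all genes. Without KCNQ5 and GRID1 the shares were 81.7% and 35.0%. Of all 986 F125A clusters, overlapping or not, 140 (14.2%) shared their 5′ end with a WT cluster, 130 (13.2%) their 3′ end and 22 (2.23%) both, beside 12.2%, 13.0% and 2.03% over all genes. The WT share with an F125A partner ran from 14.9% in SCN9A, 19.2% in TRPC4 and 20.0% in GRIK4 to 70.5% in KCNIP2 among the named genes with 20 or more clusters, and was 53.0% in KCNQ5 and 48.1% in GRID1. The number of F125A clusters in a gene by itself limits this share.

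Clusters in channel genes were as short as elsewhere. The median was 62 nt in the F125A list (quartiles 49 and 79) and 60 nt in the WT list (48 and 77), beside 64 and 60 nt over all genes. WT clusters with an F125A partner had a median of 64 nt and those without 58 nt. The longest 5 lay in GRID1 and TRPC1: a 274-nt WT cluster at chr10:86121399-86121672 with a 200-nt F125A cluster inside it at chr10:86121434-86121633, a 220-nt WT cluster at chr10:86189390-86189609 and a 204-nt F125A cluster at chr10:86315562-86315765 in GRID1, and a 206-nt F125A cluster at chr3:142748074-142748279 in TRPC1. Neighbouring clusters of a channel gene lay a median of 1150 nt apart in the F125A list and 719 nt in the WT list, beside 1033 and 637 nt over all genes. Of these gaps, 12.1% and 14.7% were under 50 nt, beside 12.2% and 14.4% over all genes.

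Clusters lay toward the start of channel genes, a lean that came mostly from KCNQ5. In the first 50% of gene length lay 728 of 986 F125A clusters (73.8%, interval 71.0 to 76.6%) and 1466 of 2091 WT clusters (70.1%, 68.1 to 72.1%), beside 60.7% and 59.8% over all genes. Without KCNQ5 and GRID1 the shares were 64.4% (60.1 to 68.6%) and 62.9% (60.1 to 65.7%), near those over all genes. Clusters within 1 kb of the annotated start were few, 14 F125A (1.42%) and 12 WT (0.574%), beside 3.36% and 1.95% over all genes. KCNQ5 shows the lean in both lists, with 278 of 299 F125A clusters (93.0%) and 484 of 540 WT clusters (89.6%) in its first 50%. Of its successive 10% steps of length, the third held 79 F125A and 121 WT clusters and the seventh 0 and 1. Within KCNQ5, the 48.1 kb of the intronic noncoding gene KCNQ5-IT1 held 50 F125A and 86 WT clusters, or 104 and 179 per 100 kb. It lies inside the first 10% step of this 577-kb gene. That step held 68 F125A and 109 WT clusters and the second 68 and 121, so KCNQ5-IT1 was no denser than the host sequence around it. Clusters of KCNQ5-IT1 cannot be told apart from those of the host. The next densest 10-kb windows after that of KCNIP2 lay in KCNQ5 and began 106 kb from the gene start (21 F125A and 37 WT clusters) and, tied in total, 0.945 kb (23 and 29) and 130 kb (22 and 30) from it. GRID1 had 126 of 184 F125A (68.5%) and 218 of 337 WT clusters (64.7%) in its first 50%. KCNIP2 went the other way, with 7 of 31 (22.6%) and 11 of 44, and in SCN9A the shares were 4 of 8 F125A and 15 of 47 WT clusters (31.9%). All 10 F125A and 19 WT clusters of KCNG3 lay in its first 50%.

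**Figure D5:**
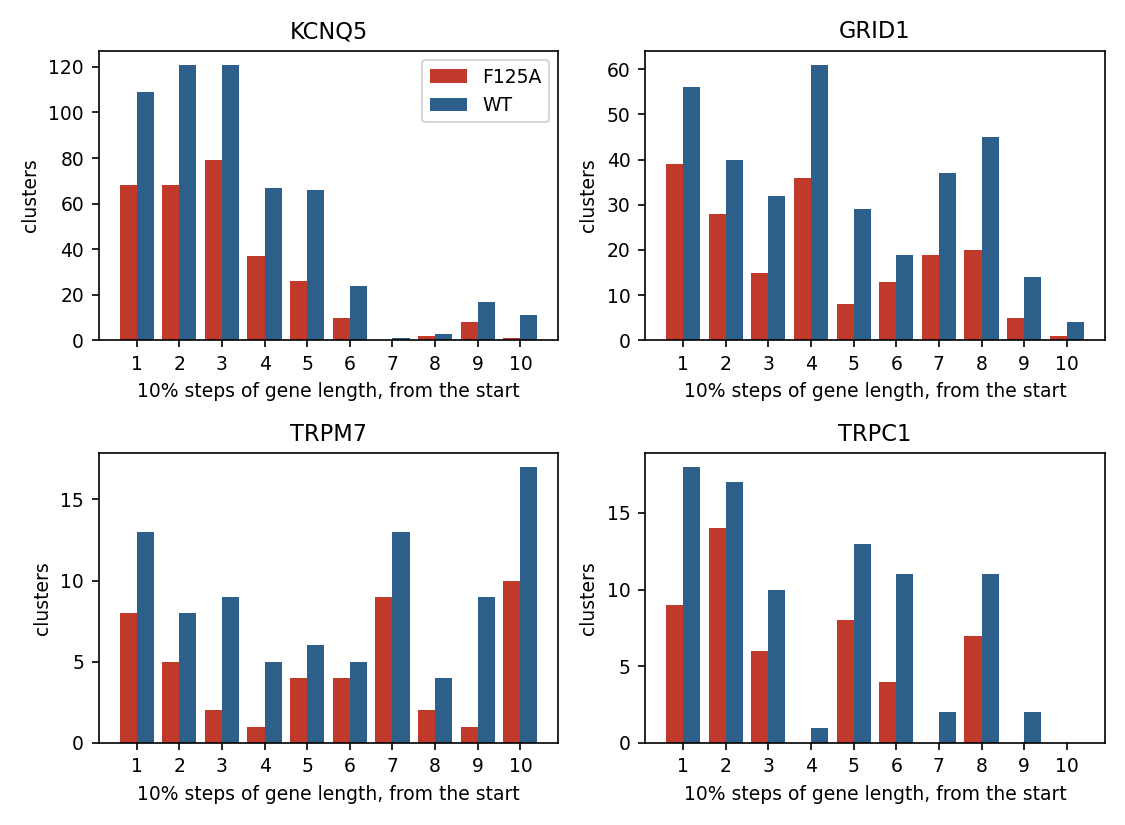
Clusters in successive 10% steps of gene length, from start to end, in the F125A list (red) and the WT list (blue) for KCNQ5, GRID1, TRPM7 and TRPC1. In KCNQ5 the first step held 68 F125A and 109 WT clusters and the seventh 0 and 1, while the steps of GRID1 held 1 to 39 F125A and 4 to 61 WT clusters.

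Related lists of genes gave the following counts. Among 106 other channel genes (chloride, ryanodine, inositol trisphosphate, nicotinic, mechanosensitive and others), 64 had a cluster and 23 had 20 or more. Their median ratio was 0.04, with 12 above and 11 below 0. Of these, 0 lay 2-fold or more toward F125A (1.99% of all genes) and 0 toward WT (2.51%), too few genes to differ from those shares. LRRC8D, a subunit of the volume-regulated anion channel, had 109 F125A and 145 WT clusters (0.55, interval 0.18 to 0.92), ITPR2, an inositol trisphosphate receptor, 57 and 148 (-0.40) and RYR2, the heart ryanodine receptor, 45 and 118 (-0.41). Of 41 scaffolds, accessory proteins and regulators of channels, 38 had a cluster and 30 had 20 or more, with a median of -0.18, 9 above and 21 below 0 (53.5% and 46.5% of all genes), 0 genes 2-fold or more toward F125A (1.99%) and 4 toward WT (2.51%). Relative to genes of similar length their median was 0.02, with 16 above and 14 below 0. The leading ones were GPHN, the gephyrin scaffold of inhibitory synapses (173 and 378, -0.16), DLG1, a membrane-associated scaffold (97 and 216, -0.18), and WNK1, a kinase that controls chloride cotransport (109 and 200, 0.09). The calcium channel genes, 20 with clusters, had 513 F125A and 1212 WT clusters and a median of -0.22 over the 10 genes with 20 or more, or 0.02 when set against like lengths.

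The channels recovered were checked against the labelled cell line, again counted in rows that name 1 gene. Of neuronal channel genes fixed as markers, KCNA1 and GRIA2 had no cluster, SCN1A 0 and 1 and SCN2A 1 and 3, and KCNC1 had 9 F125A and 16 WT clusters. Of genes of the embryonic kidney and of the neurofilaments known in HEK293 cells, PAX2 had 8 and 13 clusters, EYA1 8 and 32, NEFL 2 and 2 and LHX1 0 and 1, while NEFM and INA had none. The lists hold introns only, so a gene with short or few introns can be expressed and have no cluster.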

How the data were processed

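The deposited data were 2 lists of clusters, 1 for each Rbfox1 group, as the sample descriptions state. Per the labels' protocols, linker ligation, reverse transcription with 4-nt molecular identifiers and selection of 20 to 80 nt inserts preceded PCR. Trimming and alignment tools were cutadapt and STAR, with build hg38, per the submitters' processing notes. Not given in the sources used here are the cluster caller, its threshold, the pooling of libraries and the use of the control library, which was not analysed here. Each deposited row gives, per the file headers, chromosome, start, end, gene, region and strand, with positions in nt and no counts of reads, scores or p-values.

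Repeated rows were dropped (4851 F125A and 7029 WT). File starts count from 0, and printed starts count from 1. All 93 names matched a RefSeq GRCh38.p14 symbol. In both lists 5433 consecutive rows are the same, and they held 0 channel clusters. Ratios were computed on the whole table of genes with at least 20 clusters. Fold changes were not tested, as each group has 1 list. The log2 ratio was checked on simulated data. Python 3.11.15, pandas 2.3.3 and SciPy 1.17.1 were used.

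All genes with at least 20 clusters were named, then up to 4 per family by number of clusters, genes in 1 list only with at least 5 clusters, the leading 3 of each related list, the longest 5 clusters and the 3 densest windows. The families, members and lists were chosen with earlier results of these data known. Some genes that the rule names are not reported here. The microRNA hairpins and their mature ends were examined after the positions were seen. Of the per-sample columns, 0 were left unused.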

Additional observations from a re-analysis of the deposited data

How the results depend on the processing

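Of the 26 channel genes, 2 lay 2-fold or more toward WT with clusters closer than 50 nt merged (24 genes left, KCNMA1 at -0.996 no longer called) and 2 relative to genes of similar length, 4 with repeated rows kept, 5 with ratios centred on the median gene (SCN8A and GRIK4 joining, at -1 and -1.03) and 1 with 5 in place of 1 added (SCN9A, -1.04), against 3 as reported. The count toward F125A was 1 in each of these settings. Of all 5626 genes, 2.51% lay 2-fold or more toward WT against the list totals and 2.1% by length. Toward F125A these shares were 1.99% and 0.462%. For the other settings the share of all genes was not computed, so their counts show no change particular to channel genes. KCNMA1 ranged from -1.29 to -0.83, TRPC4 from -1.24 to -0.67 and SCN9A from -1.49 to -1.04. The median ratio lay between -0.07 (merged) and 0.10 (5 added), and at 0.03 over 35 genes with a minimum of 10 clusters. No called gene changed sign. Of genes not called and named here, 6 did in some setting: GRID1 (-0.03) and CLCN5 (-0.01) with clusters merged, CLCN5 (-0.01), TRPM7 (-0.01) and TRPC4AP (-0.03) when centred on the median gene, KCNK1 (0.07) with 5 added and KCNIP2 (-0.01) by length. KCNQ5 and GRID1 moved beyond their counting intervals relative to genes of similar length only (0.53 and 0.52). With at least 50% of a cluster required to be covered, 39.5% of WT clusters overlapped an F125A cluster, and merging moved the median WT length to 63 nt. The cause of these shifts was not tested. No replicate could be left out, and no paired analysis was possible because each group has 1 list for all its libraries. Read depth is unknown, so genes with few clusters cannot be ordered beyond their counting intervals.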
